A study of Mus musculus with 18 samples.

Results

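The genes described here make, import, store, export and sense cholesterol, together with the core enzymes of fatty acid synthesis, in regulatory T cells (Tregs) of NOD mice. NOD is an inbred strain that develops autoimmune diabetes, and Tregs are CD4+ T cells that carry the transcription factor Foxp3. The members came from a list of 34 gene symbols, and 31 of them had a probe set annotated with that symbol alone, among 19752 genes measured in the same way. Acat2, Nr1h2 and Soat1 were not analysed here. By role, the 31 fall into 17 genes of sterol synthesis, 5 regulators of the SREBP transcription factors, 3 genes of sterol transport and uptake control, 2 efflux transporters and 4 genes of fatty acid synthesis.

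The 18 Affymetrix Mouse Gene 1.0 ST arrays fall into 6 groups of 3, all of NOD background. In the spleen, mice carried the Foxp3-eGFP-Cre-ERT2 and Rosa26-YFP alleles, so that cells with active Foxp3 while tamoxifen is present switch on YFP for good and pass it on when they divide. Perinate-tagged Tregs were GFP+YFP+ cells of mice given 4 tamoxifen injections between days 0 and 10 of life, and adult-tagged Tregs were GFP+YFP+ cells of mice given 4 between days 35 and 45. The GFP+YFP- cells sorted after each of these treatments are called perinate-treated untagged and adult-treated untagged, and they hold Tregs of any age of origin that recombination did not mark. These 4 groups came from females labelled 60 days old and from a FACSAria sorter. Perinate thymus and adult thymus groups were CD4+GFP+ cells of males, 4 days and 5 weeks old, from a MoFlo sorter and with no tamoxifen in the labels. Sex, sorter, tissue and age therefore cannot be told apart between spleen and thymus. Whether replicates were separate animals or pools is not in the labels, and p-values cover the spread between these samples alone.

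Cells hold their cholesterol within narrow limits through a pair of opposed programmes. When sterol in the endoplasmic reticulum is low, the escort protein Scap carries the SREBP precursors, encoded by Srebf1 and Srebf2, to the Golgi, and the released factor activates the genes of the mevalonate and sterol pathway. Insig proteins hold Scap back when sterol is plentiful, and Insig1 is itself an SREBP target, so its transcript follows the programme it restrains. When oxysterols accumulate, the LXR receptors activate the exporters Abca1 and Abcg1 and the ubiquitin ligase Mylip, which sends lipoprotein receptors to breakdown. T cells raise sterol and fatty acid synthesis when they grow and divide and build new membrane.

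The promoters of 4 genes that the results below turn on are printed here because SREBP acts together with the factor NF-Y at such promoters. Each line gives the 250 bases before the annotated start, 5′ to 3′ on the gene's strand, from RefSeq (GRCm38.p6). Capitals mark exact matches, on either strand, to the SRE-like motif TCACNCCAC or to the NF-Y box CCAAT, which reads ATTGG on the other strand.
Hmgcs1, chr13:119690101-119690350, plus strand: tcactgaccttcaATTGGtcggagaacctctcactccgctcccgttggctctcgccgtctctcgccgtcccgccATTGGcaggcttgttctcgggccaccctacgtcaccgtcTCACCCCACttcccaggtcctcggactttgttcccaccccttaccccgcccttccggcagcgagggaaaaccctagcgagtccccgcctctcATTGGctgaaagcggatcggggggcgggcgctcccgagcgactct
Idi1, chr13:8885356-8885605, plus strand: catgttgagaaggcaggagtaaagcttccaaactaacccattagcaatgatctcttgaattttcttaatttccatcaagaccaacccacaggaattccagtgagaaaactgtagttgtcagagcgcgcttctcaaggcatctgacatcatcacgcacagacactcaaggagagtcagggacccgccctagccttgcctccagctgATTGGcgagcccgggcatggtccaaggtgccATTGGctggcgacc
Cyp51, chr5:4104698-4104947, minus strand: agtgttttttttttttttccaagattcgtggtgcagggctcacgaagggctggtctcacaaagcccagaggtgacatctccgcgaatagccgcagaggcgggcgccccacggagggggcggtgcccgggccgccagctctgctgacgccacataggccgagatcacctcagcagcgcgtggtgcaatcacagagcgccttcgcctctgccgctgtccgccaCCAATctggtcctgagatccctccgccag
Insig1, chr5:28071162-28071411, plus strand: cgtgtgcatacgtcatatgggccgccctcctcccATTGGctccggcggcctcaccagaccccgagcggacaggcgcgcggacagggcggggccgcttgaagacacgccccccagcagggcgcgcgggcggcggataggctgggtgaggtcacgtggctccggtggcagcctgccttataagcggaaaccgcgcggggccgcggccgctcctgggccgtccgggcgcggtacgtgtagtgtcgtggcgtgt
The Hmgcs1 window holds 1 SRE-like match (TCACCCCAC, -137 to -129 from the start) and 3 NF-Y boxes. The windows of Idi1, Cyp51 and Insig1 hold 2, 1 and 1 NF-Y boxes and no exact SRE-like match. A promoter was found for 27 of the 34 listed genes. The CCAAT box occurs in 21 of these 27 (77.8%) and in 14 of 15 sterol synthesis genes with a promoter, against 33.8% of all 32851 promoters of the same length and 39.5% of protein-coding genes. The SRE-like motif occurs in 1 of the 27 and in 1.05% of all promoters. The LXR motif searched (DR4-like: AGGTCA, any 4 bases, then AGGTCA again, on both strands) occurs in 0 of the 27 and in 5 of the 32851. A match is a description of letters and does not show that a factor binds.

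Levels are log2 of the deposited RMA intensities (n = 3 arrays a group), and a difference between groups is on that log2 scale with its standard error (SE). A gene is called changed when its p from limma, adjusted by the Benjamini-Hochberg method over all genes tested, is under 0.05. A gene was tested where its mean reached the median of all values (7.052) in at least 1 group of the fit. In the spleen 29 of the 31 members were tested (not Pmvk and Tm7sf2), and in the thymus 30 (not Pmvk). Genes without transcription in one sex (Y-linked genes on female arrays, Xist on male arrays) read between 3.95 and 6.3. This is called the range of absent transcripts here. It rests on Eif2s3y, Kdm5d, Uty and Xist alone and may differ for other probe sets. The stroma marker Col1a1 (group means 7.52 to 7.85) and the epithelial marker Krt8 (7.2 to 7.83) read above it in every group. A reading above the range therefore does not show that a transcript is present.

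Some arrays stand apart. Perinate-tagged replicate 2 is labelled female but read 9.79 for the Y-linked gene Eif2s3y, like the male thymus arrays (9.73 to 10.04), with Xist at 8.38. Both untagged arrays numbered 3, one from each treatment, differ from the other 4 untagged arrays in many members, as described below. Adult thymus replicate 2 had the narrowest spread of values of the 18 arrays (interquartile range 2.08, against 2.49 to 3.12 on the others), and group means of this range were 2.95 to 3.05 in the perinate groups and 2.53 to 2.77 in the adult ones. Foxp3, the gene of the sort, lay between 11.88 and 12.40 on every array. The dividing-cell markers (7 measured of 8, among them Mki67 and Top2a) summed to 6497 to 6726 linear intensity units in perinate-tagged cells, 1009 to 1584 in adult-tagged cells, 5561 to 6317 in perinate thymus and 1668 to 2179 in adult thymus. Myeloid markers, whose cells also use Abca1 and Abcg1, summed to 462 to 657 over 6 genes on every array, with Lyz2 between 5.58 and 7.20 and Cd68 between 7.30 and 8.03 on the log2 scale, with Cd68 above the range of absent transcripts on every array. Arrays of whole sorted samples cannot tell more cells of a type from more RNA per cell.

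Across the 6 groups, perinate thymus had the highest mean for 22 of the 31 members, and adult thymus the lowest for 18. Abca1 and Mylip were lowest in perinate thymus, and Ebp, a sterol isomerase, together with Sc5d, a sterol desaturase, Npc1, the lysosomal cholesterol exporter, Acly and Insig2 were highest in perinate-tagged spleen cells. Pmvk, an early mevalonate kinase, stayed between 6.72 and 6.91 in all group means, under the level required for a test. These orders describe means and were not tested over the 6 groups.

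**Figure D1:**
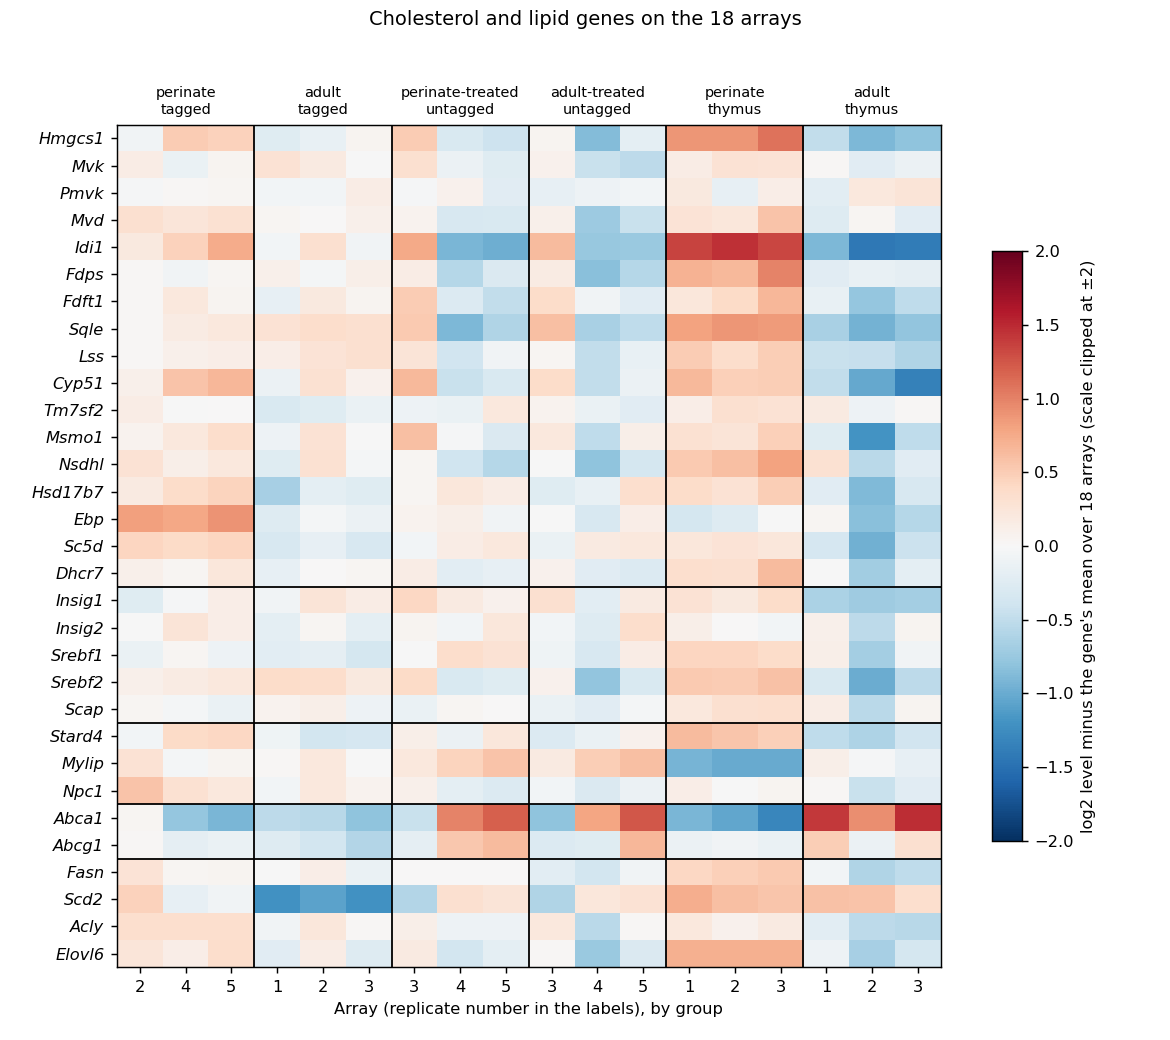
Log2 level of each of the 31 members (rows, grouped by role with black lines between synthesis, SREBP regulators, transport, efflux and fatty acid genes) minus that gene's mean over the 18 arrays (columns, grouped, with replicate numbers). Red is above and blue below the gene's mean; the perinate thymus columns are red for most synthesis genes and blue for Mylip and Abca1, and the untagged columns numbered 3 differ from those numbered 4 and 5.

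Perinate against adult thymic Tregs was the comparison with most members changed. Sterol synthesis genes were higher in the perinate cells and the exporter Abca1 was lower. Of 30 members tested, 19 were higher and 2 lower, in a comparison in which 24.3% of 10650 genes were called (18.5% higher and 5.84% lower). The members' median difference was 0.81, against 0.17 over all genes tested. By role, 13 of 16 sterol synthesis genes tested rose, 2 of 5 SREBP regulators rose (Srebf2 and Insig1), Stard4 rose and Mylip fell among 3 transport and uptake genes, and 3 of 4 fatty acid genes rose. Idi1, Lss, Cyp51 and Tm7sf2 entered the test only through their perinate level. With no filter 18 members rose and 2 fell of 31, with 11.3% of 19752 genes called.

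Idi1, the isomerase that makes the allylic isoprenoid unit, gave the largest difference of any member. It read 9.03, 9.13 and 9.01 on the perinate thymus arrays, against 6.78, 6.24 and 6.28 on the adult thymus arrays. The groups are far apart, with a difference of 2.62 ± 0.16 (SE), which is 6.15-fold (limma adjusted p = 0.000183). On 2 of the 3 adult arrays Idi1 lay within the range of absent transcripts, so that fold may be too small. Its other probe set gave 2.91.

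Hmgcs1, which encodes HMG-CoA synthase of the early mevalonate pathway, read 9.11, 9.10 and 9.30 in perinate thymus, against 7.73, 7.32 and 7.41 in adult thymus. No adult array came within 1 log2 unit of a perinate one, and the difference was 1.68 ± 0.14 (3.21-fold, limma adjusted p = 0.000521). Sqle, squalene epoxidase, a rate-limiting step of the late pathway, read 8.85, 8.93 and 8.89 in perinate thymus, against 7.40, 7.10 and 7.25 in adult thymus. That is a difference of 1.64 ± 0.12 (3.11-fold, limma adjusted p = 0.000301) between groups that do not overlap. Cyp51, lanosterol demethylase, read 8.23, 8.06 and 8.07 in perinate thymus, against 7.09, 6.56 and 6.23 in adult thymus. There 1 array lay within the range of absent transcripts. Its difference was 1.49 ± 0.21 (2.81-fold, limma adjusted p = 0.00291).

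Other enzymes of the pathway that passed the test rose by less. Between Idi1 and Sqle stand Fdps, farnesyl diphosphate synthase (0.96 ± 0.13), and Fdft1, squalene synthase (0.90 ± 0.18). After Sqle come Lss, lanosterol synthase (0.95 ± 0.11), and the enzymes that trim and desaturate the sterol, Msmo1 (0.99 ± 0.23), Nsdhl (0.80 ± 0.21), Hsd17b7 (0.87 ± 0.18), Sc5d (0.82 ± 0.17) and Dhcr7 (0.73 ± 0.19). Mvd, mevalonate diphosphate decarboxylase, changed least among the genes called (0.51 ± 0.14, limma adjusted p = 0.0375). Mvk (0.35 ± 0.12, limma adjusted p = 0.0652), Ebp (0.25 ± 0.22) and Tm7sf2 (0.21 ± 0.12) did not pass the threshold.

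Among the regulators, Srebf2, the SREBP gene tied to cholesterol synthesis, averaged 10.71 ± 0.04 in perinate thymus and 9.56 ± 0.36 in adult thymus (SD), a difference of 1.15 ± 0.18 (SE, limma adjusted p = 0.00453). Insig1 read 9.31, 9.23 and 9.40 in perinate thymus, against 8.40, 8.32 and 8.35 in adult thymus. Its difference of 0.96 ± 0.11 (limma adjusted p = 0.00133) is many times the spread within either group. Srebf1, the SREBP gene tied more to fatty acids, had a difference of 0.62 ± 0.20 and missed the threshold (limma adjusted p = 0.056), and Scap (0.40 ± 0.18) and Insig2 (0.15 ± 0.18) did not pass either. Stard4, a soluble sterol carrier, read 8.27, 8.20 and 8.11 in perinate thymus, against 7.13, 7.02 and 7.25 in adult thymus (1.06 ± 0.12, limma adjusted p = 0.00121). Npc1 had a difference of 0.27 ± 0.14 that did not pass (limma adjusted p = 0.174).

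Abca1 and Mylip fell. Abca1, which loads cholesterol onto apolipoprotein particles, read 7.69, 7.56 and 7.30 in perinate thymus, against 10.02, 9.53 and 10.08 in adult thymus. It was 5.15-fold lower in the perinate cells (-2.36 ± 0.18, limma adjusted p = 0.000308), the most negative difference of any member. Mylip read 8.15, 8.06 and 8.07 in perinate thymus, against 9.19, 9.05 and 8.91 in adult thymus, a difference of -0.96 ± 0.12 (limma adjusted p = 0.0018) between separate groups. Abcg1, the partner exporter, read 9.59, 9.64 and 9.58 in perinate thymus, against 10.21, 9.59 and 10.04 in adult thymus. Adult replicate 2 sits among the perinate values, and the difference of -0.34 ± 0.17 was not called (limma adjusted p = 0.15). Without that array it was -0.52 (limma adjusted p = 0.00217), with quantile normalization -0.58 (adjusted p = 0.0125), and with each array's interquartile range as a covariate -0.75 (adjusted p = 0.00156). No other alternative called it. It was -0.22 with median centring (limma adjusted p = 0.408), -0.46 with array weights (0.0588) and -0.34 with the replicate block (0.157). Leaving out each array in turn gave -0.52 to -0.21.

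**Figure D2:**
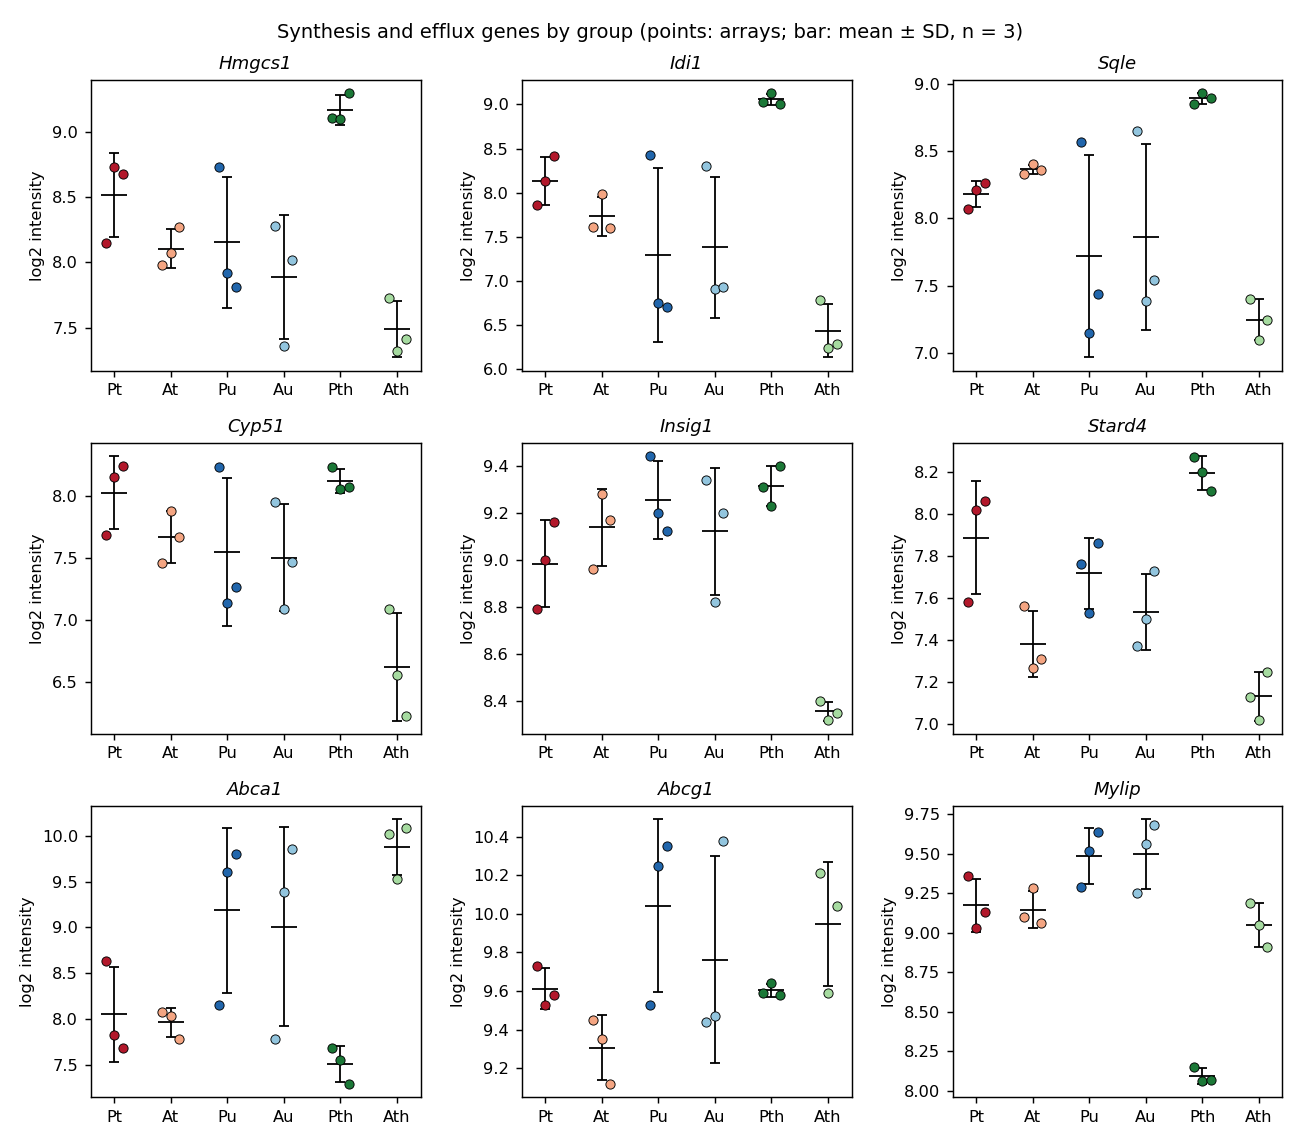
Log2 intensity of 9 members on every array (points), with mean and SD of each group (bars, n = 3). Pt is perinate-tagged, At adult-tagged, Pu perinate-treated untagged, Au adult-treated untagged, Pth perinate thymus and Ath adult thymus; vertical axes differ between panels and do not start at 0. Idi1, Hmgcs1 and Sqle are highest and Abca1 and Mylip lowest in perinate thymus, and the untagged groups split into 1 array and the other 2 for Idi1, Sqle and Abca1.

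Of the fatty acid genes, Elovl6, Fasn and Acly rose and Scd2 did not pass. Elovl6, which lengthens palmitate, differed by 1.08 ± 0.15 (limma adjusted p = 0.00322), fatty acid synthase Fasn by 0.86 ± 0.16 (adjusted p = 0.00944) and the citrate-cleaving enzyme Acly by 0.59 ± 0.13 (adjusted p = 0.0185). Scd2, a desaturase, was high in both groups, at 10.89 ± 0.08 in perinate thymus and 10.76 ± 0.14 in adult thymus (SD), with a difference of 0.13 and a 95% interval of -0.15 to 0.41. Of a further list of 36 genes of the same pathways, 33 were measured and 24 tested, and 10 rose and 0 fell. They include Acaca, acetyl-CoA carboxylase (1.24 ± 0.13), the sterol-responsive gene Tmem97 (1.12 ± 0.18), both subunit genes of the dolichol-making transferase, Dhdds (0.97 ± 0.15) and Nus1 (0.92 ± 0.19), and the lipoprotein receptor Scarb1 (0.76 ± 0.16).

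In the same comparison all 7 dividing-cell markers measured were higher in perinate thymus (median difference 1.65), and their part in the result was not tested. The 6 immature thymocyte markers summed to 1536 to 1660 in perinate thymus, against 2151 to 2244 in adult thymus. Most of this was Cd8a and Cd8b1 (1323 to 1408 in perinate and 1831 to 1989 in adult thymus), and Cd8a was lower (-0.61, limma adjusted p = 0.00735). Rag2 (4.08 and 4.39) and Dntt (5.50 and 5.93) averaged within the range of absent transcripts, and Rag1 (6.18 and 6.46) and Ptcra (6.47 and 6.67) near it. The part of these markers was not tested either. Myeloid markers summed to 580 to 597 in perinate thymus and 574 to 657 in adult thymus. Lyz2 averaged 6.15 in perinate thymus and 6.89 in adult thymus, and Cd68 7.94 in perinate and 7.68 in adult thymus; their part was not tested. The number of members called depended on the arrays, and so did the share of all genes called. Leaving out perinate thymus replicate 3 left 12 of the 21, with 7.4% of all genes called. Leaving out replicate 2 left 13, with 7.56%, against 24.3% with every array in the fit. Idi1, Hmgcs1, Sqle, Cyp51, Fdps, Lss, Insig1, Srebf2, Stard4, Elovl6, Abca1 and Mylip stayed past the threshold in all 6 such fits. With the interquartile range as a covariate the members' median difference was 0.40, and 15 rose and 3 fell, with 23.7% of all genes called.

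**Figure D3:**
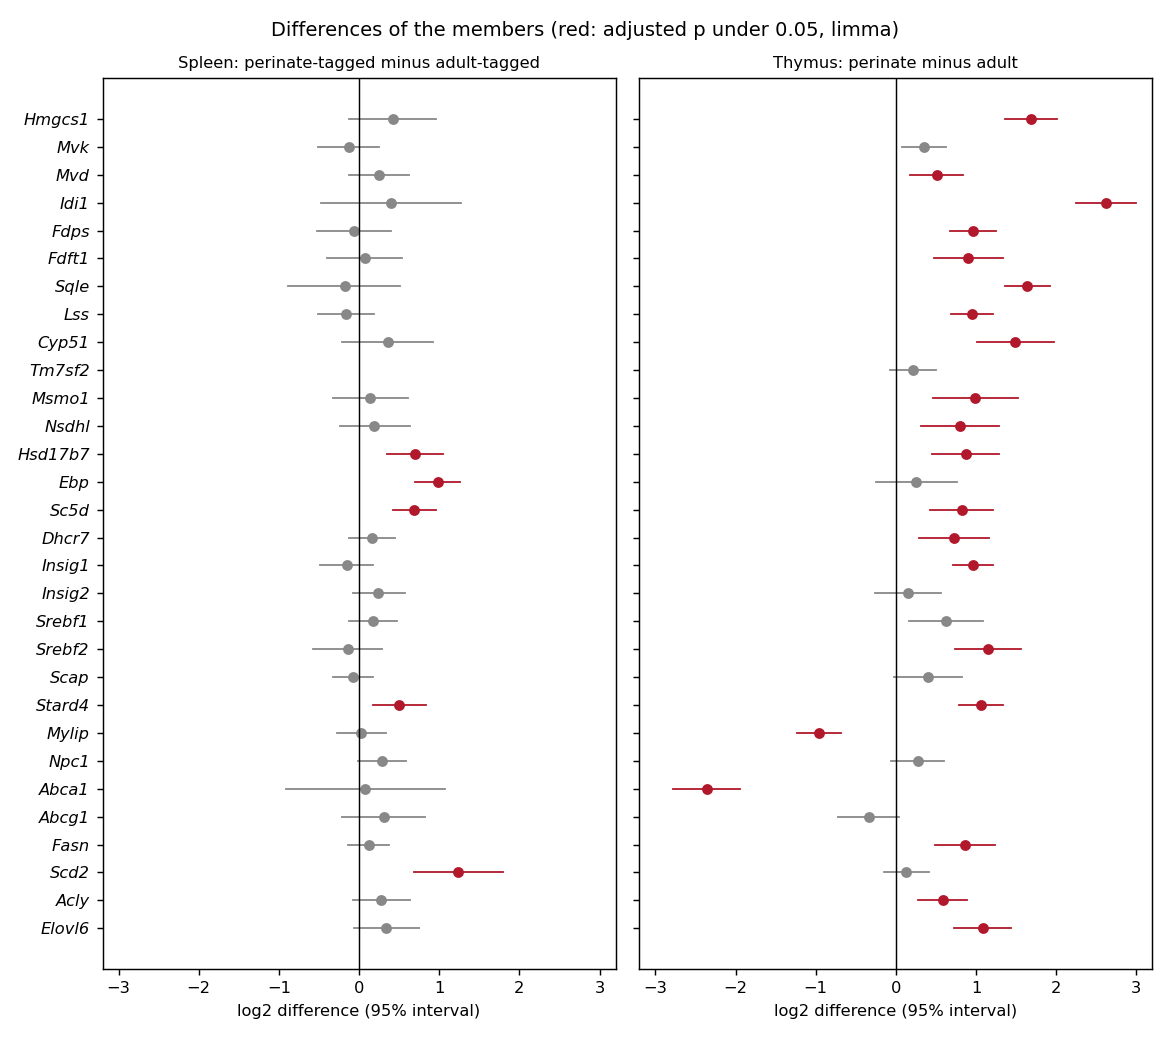
Log2 difference of each member tested (rows) with its 95% interval (bars), for perinate-tagged minus adult-tagged spleen Tregs (left) and perinate minus adult thymic Tregs (right); red points have an adjusted p under 0.05. The thymus panel holds 19 red points to the right of 0 and 2 to the left (Abca1 and Mylip), and the spleen panel 5 red points, all to the right of 0.

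Perinate-tagged against adult-tagged spleen Tregs asks whether Tregs that arose around birth differ, at 60 days of age, from those marked as adults. Few members changed, and Idi1, Hmgcs1, Sqle and Abca1 were not among them. Of 29 members tested, 5 were higher and 0 lower in perinate-tagged cells, where 19.5% of 10350 genes were called (16% higher and 3.5% lower). That share of members is close to the background, and the members' median difference was 0.19, against 0.12 over all genes. The 5 were Scd2, Ebp, Hsd17b7, Sc5d and Stard4.

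Scd2 read 10.73, 10.11 and 10.19 in perinate-tagged cells, against 9.05, 9.19 and 9.06 in adult-tagged cells. All 3 perinate-tagged values exceed the adult-tagged ones, by 1.24 ± 0.26 (2.37-fold, limma adjusted p = 0.00424), and the adult-tagged group was the lowest of the 6 groups for this gene. Ebp read 9.91, 9.86 and 9.99 in perinate-tagged cells, against 8.82, 9.04 and 8.96 in adult-tagged cells (0.98 ± 0.13, 1.97-fold, limma adjusted p = 0.00013). The next highest array of the series for Ebp read 9.21. Sc5d read 9.93, 9.89 and 9.94 in perinate-tagged cells, against 9.18, 9.34 and 9.18 in adult-tagged cells (0.69 ± 0.13, limma adjusted p = 0.00166). Hsd17b7, a sterol ketoreductase, read 8.39, 8.58 and 8.65 in perinate-tagged cells, against 7.54, 8.01 and 7.97 in adult-tagged cells (0.70 ± 0.17, limma adjusted p = 0.00933). Stard4 read 7.58, 8.02 and 8.06 in perinate-tagged cells, against 7.56, 7.27 and 7.31 in adult-tagged cells, with replicate 2 of the perinate-tagged group barely above the highest adult-tagged value (0.50 ± 0.16, limma adjusted p = 0.0346).

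Idi1, Hmgcs1, Sqle and Cyp51, which had the largest rises in the thymus, did not pass. Idi1 read 7.86, 8.13 and 8.41 in perinate-tagged cells, against 7.61, 7.99 and 7.60 in adult-tagged cells. The groups overlap, and the difference was 0.40 with a 95% interval of -0.47 to 1.27. Hmgcs1 read 8.15, 8.73 and 8.68 in perinate-tagged cells, against 7.98, 8.07 and 8.27 in adult-tagged cells (0.42, interval -0.12 to 0.96). For Sqle the difference was -0.18 (interval -0.88 to 0.51), for Cyp51 0.36 (-0.21 to 0.92) and for the regulator Insig1 -0.15 (-0.49 to 0.18). Abca1 read 8.64, 7.83 and 7.69 in perinate-tagged cells, against 8.08, 8.04 and 7.79 in adult-tagged cells (0.08, interval -0.91 to 1.07). Abcg1 read 9.73, 9.53 and 9.58 in perinate-tagged cells, against 9.45, 9.35 and 9.12 in adult-tagged cells (0.31, interval -0.21 to 0.82). Mylip differed by 0.03 (-0.28 to 0.34). On all 6 tagged arrays Abca1 stayed at or below 8.64.

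Of the 24 further pathway genes tested, 7 rose and 0 fell in perinate-tagged cells. They were Rxra, the partner receptor of LXR (0.78 ± 0.16), Tmem97 (0.71 ± 0.13), Lbr, a nuclear envelope protein with sterol reductase activity (0.69 ± 0.16), Scarb1 (0.69 ± 0.21), Nus1 (0.58 ± 0.16), the phospholipid-remodelling LXR target Lpcat3 (0.49 ± 0.13) and the elongase Elovl1 (0.48 ± 0.12). All 7 dividing-cell markers measured were higher in perinate-tagged cells (median difference 2.49), and their part in the members' changes was not tested. The myeloid sums were 565 to 657 in perinate-tagged cells and 484 to 513 in adult-tagged cells. Of these markers only Cd68 was tested, and it was higher (0.54, limma adjusted p = 0.0276). Itgam (6.47 against 6.02), Adgre1 (5.75 against 5.31) and Csf1r (6.32 against 6.21) averaged higher. Fcgr3 was level (6.13 against 6.12) and Lyz2 lower (6.1 against 6.28). The B cell sums were 752 to 902 against 514 to 607, mostly from Cd79b (0.66, limma adjusted p = 0.00476). Cd79a averaged 5.3 against 5.16 and Ms4a1 5.21 against 5.48, both within the range of absent transcripts. The part of these markers was not tested.

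Perinate-tagged replicate 2, the array with the Y-linked signal, had the highest Scd2, Npc1 and Abca1 of its group. Without it the same 5 members were called (Scd2 1.05, Ebp 0.98, Hsd17b7 0.78, Sc5d 0.68, Stard4 0.66), with 19.2% of all genes called. Without perinate-tagged replicate 5, 3 were called, with 9.11% of all genes, and Hsd17b7 (limma adjusted p = 0.0501) and Stard4 (0.155) were not. Stard4 lost its call in 4 of the 6 fits that left out 1 tagged array and with quantile normalization (limma adjusted p = 0.0659), and Hsd17b7 in 2 of 6, while Ebp, Scd2 and Sc5d lost it in 0. With the interquartile range as a covariate 1 was called, Ebp (0.74, limma adjusted p = 0.00945), with 3.63% of all genes called. With array weights 14 of 29 were called, but so were 57.0% of all genes.

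**Figure D4:**
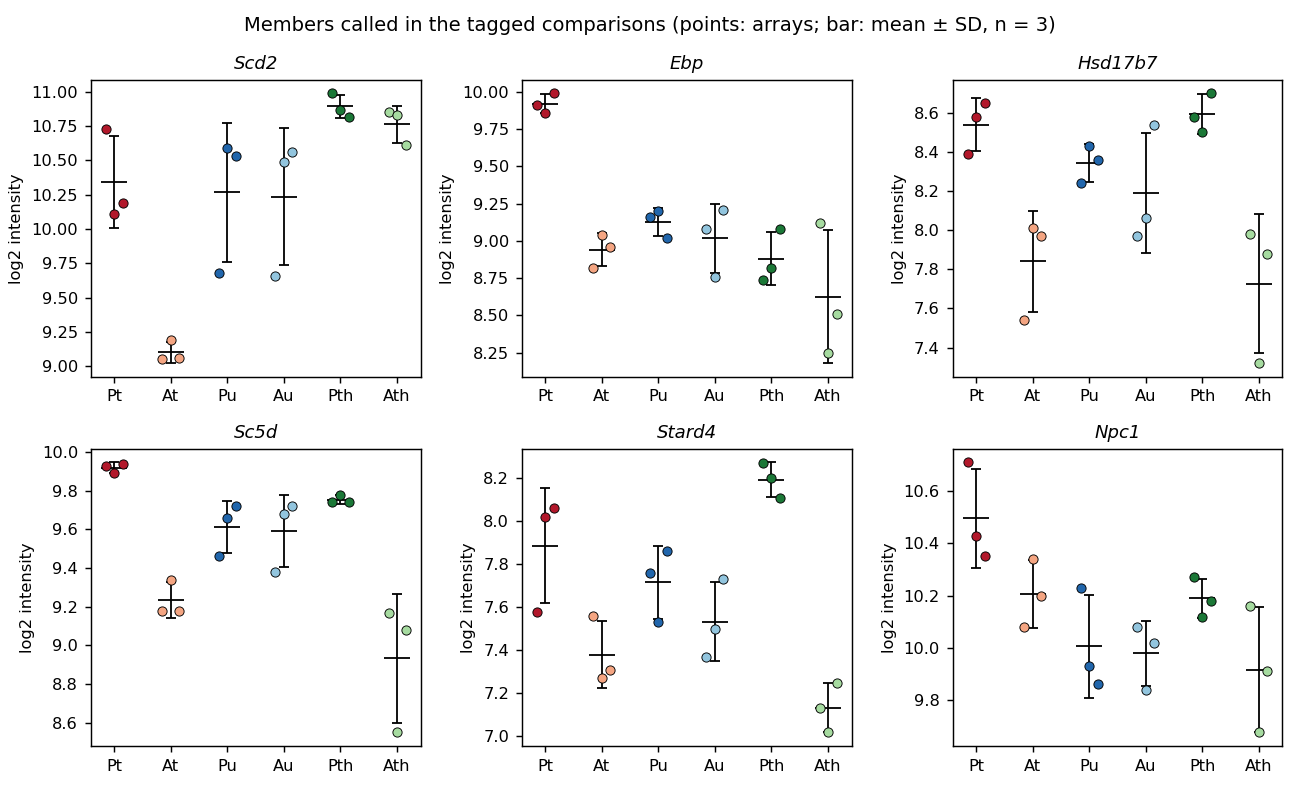
Log2 intensity on every array (points), with group mean and SD (bars, n = 3), for the 6 members called in the comparisons of tagged cells; group letters are Pt perinate-tagged, At adult-tagged, Pu perinate-treated untagged, Au adult-treated untagged, Pth perinate thymus and Ath adult thymus, and vertical axes differ and do not start at 0. Ebp stands above every other group in perinate-tagged cells, and Scd2 stands below every other group in adult-tagged cells.

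The untagged cells show whether the timing of tamoxifen went with a difference in the unmarked bulk. Between perinate-treated and adult-treated untagged Tregs, limma called 0 of 29 members and 0% of 10350 genes, and 0 members had an unadjusted p under 0.05. The differences lay between -0.14 and 0.29, and the median half-width of their 95% intervals was 0.37. With replicate number as a block over these arrays 0 members were called as well, with 0.495% of 9891 genes called. Whether the numbers pair the arrays is not shown. The arrays numbered 3 deviated together across genes (r = 0.62). Those numbered 4 did so less (r = 0.13) than the differently numbered arrays 4 and 5 (0.28 and 0.29).

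What differs within the untagged cells is the array number. The arrays numbered 3 carried high synthesis genes and low Abca1 in both treatments. Idi1 read 8.43 on perinate-treated replicate 3 and 8.30 on adult-treated replicate 3, whereas the arrays numbered 4 and 5 read 6.75 and 6.70 in perinate-treated cells, against 6.91 and 6.93 in adult-treated cells. Sqle read 8.57 and 8.65 on the arrays numbered 3 and at most 7.54 on the other 4. Abca1 read 8.16 and 7.79 on the arrays numbered 3, while those numbered 4 and 5 read 9.60 and 9.80 in perinate-treated cells, against 9.39 and 9.85 in adult-treated cells. Mean differences of the arrays numbered 3 from the other 4 were 1.54 for Idi1, 1.23 for Sqle, 0.85 for Cyp51, 0.72 for Hmgcs1, 0.64 for Srebf2, -0.87 for Scd2, -0.63 for Abcg1 and -1.69 for Abca1.

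Both arrays numbered 3 lay above the other 4 for 17 of 29 members, 12 of them among 15 sterol synthesis genes, and below for 4 (Sc5d, Mylip, Abca1 and Scd2). Over all 10350 genes the shares were 16.6% above and 14.8% below. The split was seen in the data and not in the labels, so it was not tested, and the labels do not say what the number stands for. The dividing-cell sums were 2054 and 2503 on the arrays numbered 3 and 2917 to 3189 on the others, but Rrm2 among these genes read 8.06 and 8.17 on the arrays numbered 3 and at most 8.05 on the others. Myeloid sums were 485 and 511 on the arrays numbered 3 and 462 to 591 on the others. Among the Treg markers Ctla4 read 10.46 and 10.44 on the arrays numbered 3 and 11.63 to 11.94 on the others. Ikzf2 read 11.34 and 11.13 against 11.43 to 11.70. Il2ra went the other way (12.43 and 12.52 against 12.20 to 12.37), and Foxp3, Cd4 and Cd3e overlapped. The part of all these markers was not tested.

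Tagged cells were also set against the untagged bulk of the same treatment. After perinatal tamoxifen, 2 of 29 members were higher in tagged cells and 0 lower, with 7.34% of genes called (5.49% higher and 1.86% lower). Ebp read 9.91, 9.86 and 9.99 in perinate-tagged cells, against 9.16, 9.20 and 9.02 in perinate-treated untagged cells (0.79 ± 0.13, limma adjusted p = 0.00227). Npc1 read 10.71, 10.43 and 10.35 in perinate-tagged cells, against 10.23, 9.93 and 9.86 in perinate-treated untagged cells (0.49 ± 0.14, limma adjusted p = 0.0473). The Npc1 call was lost in 5 of the 6 fits that left out 1 array of these groups (0.38 and limma adjusted p = 0.157 without perinate-tagged replicate 2), with quantile normalization and with the interquartile range covariate. All 7 dividing-cell markers measured were higher in tagged cells here too (median 1.33). So was the B cell marker Cd79b (0.81, limma adjusted p = 0.00286), and the B cell sums were 752 to 902 in tagged and 466 to 608 in untagged cells. The other B cell markers measured averaged within the range of absent transcripts and were not higher in tagged cells. Cd79a averaged 5.30 in tagged and 5.66 in untagged cells, and Ms4a1 5.21 and 5.26. The part of these markers was not tested.

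In the untagged group the SD was 0.98 for Idi1 and 0.90 for Abca1. Idi1 differed by 0.84 ± 0.41 and Abca1 by -1.13 ± 0.46, neither called (limma adjusted p = 0.236 and 0.16). Leaving out both untagged arrays numbered 3, a choice made after seeing their levels of these genes, gave 10 members higher and 2 lower in perinate-tagged cells, with 15.4% of 10400 genes called. Since the choice itself enlarges these differences and narrows the spread, the values are a description with no test. Idi1 then differed by 1.41 ± 0.17, Sqle by 0.89 ± 0.14, Cyp51 by 0.82 ± 0.18, Hmgcs1 by 0.66 ± 0.20, Abcg1 by -0.69 ± 0.20 and Abca1 by -1.65 ± 0.23.

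After adult tamoxifen, limma called 0 of 29 members, with 0.271% of genes called. Scd2 came nearest, at 9.05, 9.19 and 9.06 in adult-tagged cells, against 9.66, 10.49 and 10.56 in adult-treated untagged cells (-1.13 ± 0.26, limma adjusted p = 0.0705). The groups do not overlap for Scd2. Without both untagged arrays numbered 3, 8 members were higher and 5 lower in adult-tagged cells, with 13.9% of genes called, again as a description. Sqle was higher by 0.90 ± 0.14, Srebf2 by 0.85 ± 0.15, Idi1 by 0.81 ± 0.17 and Fdps by 0.77 ± 0.14, while Abca1 (-1.65 ± 0.23), Scd2 (-1.42 ± 0.17), Abcg1 (-0.62 ± 0.20), Mylip and Sc5d (both -0.47) were lower. Here 4 of the 7 dividing-cell markers were called lower in tagged cells over all arrays, the opposite of the perinatal treatment, and their part was not tested. All these tagged comparisons share arrays, so their counts are not independent of each other.

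The test of the interaction asks whether the perinate minus adult difference was larger in tagged than in untagged cells. Ebp (0.86 ± 0.18, limma adjusted p = 0.013) and Sc5d (0.67 ± 0.18, limma adjusted p = 0.0425) passed, 2 of 29 members, with 4.89% of genes called (4.29% higher and 0.599% lower). With replicate number as a block over the 12 spleen arrays 0 members passed, Ebp included (0.83, limma adjusted p = 0.0684), and with all 18 arrays in the fit Sc5d passed no longer and Ebp neither (limma adjusted p = 0.0511). Without both untagged arrays numbered 3, the Scd2 value was 1.20 ± 0.23, given as a description. Without perinate-tagged replicate 2 Sc5d did not pass (limma adjusted p = 0.0685), and it lost its call in 10 of the 12 fits that left out an array. All 7 dividing-cell markers measured passed the interaction test in the same direction (median 2.49). Cd79b passed too (0.77, limma adjusted p = 0.0349), while the other B cell markers lay under the level required for a test. So did the epithelial marker Epcam (1.38, limma adjusted p = 0.0211). The other epithelium and stroma markers tested went the other way and were not called: Krt8 (-0.10), Col1a1 (-0.20) and Col3a1 (-0.18). The part of these markers was not tested.

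The difference between the spleen and the thymus contrasts was tested over all 18 arrays, with 6.46% of 10889 genes called (3.89% higher and 2.56% lower). Tissue, sex, sorter and tamoxifen differ together here and cannot be told apart. Of 30 members, 8 had a perinate minus adult difference that was lower in tagged spleen cells than in the thymus, and 2 had a higher one. The lower ones were Idi1 (-2.22 ± 0.53), Sqle (-1.82 ± 0.41), Srebf2 (-1.29 ± 0.29), Hmgcs1 (-1.27 ± 0.33), Lss (-1.11 ± 0.21), Insig1 (-1.11 ± 0.20), Fdps (-1.03 ± 0.28) and Fasn (-0.74 ± 0.19). Abca1 (2.44 ± 0.60) and Mylip (0.99 ± 0.19) were the higher ones. Without adult thymus replicate 3 the count was 6 in place of 10, with 4.23% of all genes called in place of 6.46%.

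Synthesis and efflux genes were also set against each other on each array. The mean deviation of the 17 synthesis genes minus that of Abca1 and Abcg1 was 0.95 to 1.30 on the perinate thymus arrays, against -1.37 to -1.04 on the adult thymus arrays. In tagged cells it was 0.14 to 0.83 after perinatal and 0.28 to 0.72 after adult tamoxifen. On perinate-tagged replicate 2 both means lay above 0 (0.17 for synthesis and 0.03 for efflux), and on adult-tagged replicate 1 both lay below it (-0.11 and -0.39). Untagged arrays numbered 3 had 0.58 after perinatal and 0.68 after adult tamoxifen, and those numbered 4 and 5 lay between -1.18 and -0.71. The 7 arrays with Abca1 above 9, a bound set after seeing the values, were the 3 adult thymus arrays and the 4 untagged arrays numbered 4 and 5. They are also the 7 arrays with the lowest Idi1, at most 6.93, whereas the other 11 arrays had Idi1 of at least 7.60. These points share groups and normalization, and no correlation was tested.

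**Figure D5:**
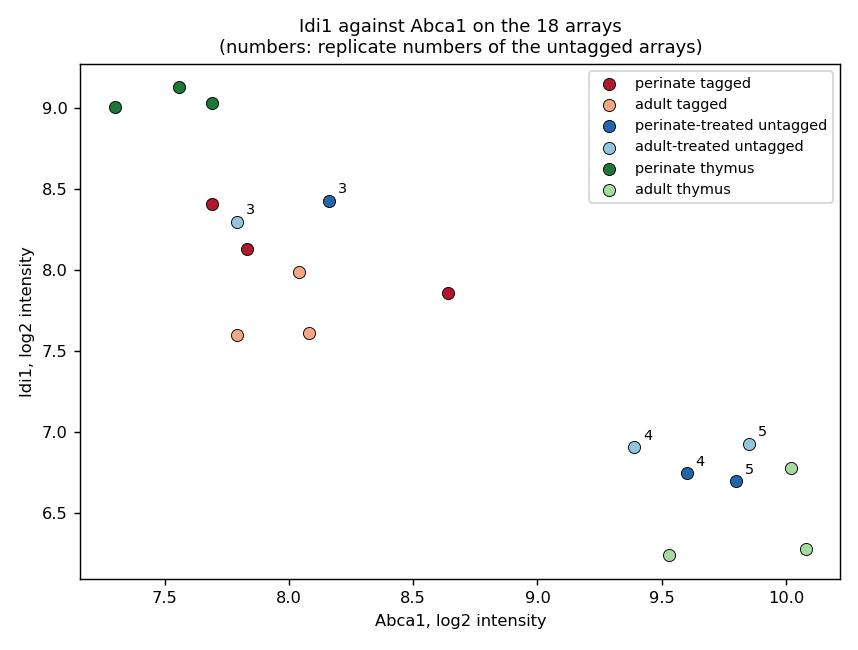
Log2 intensity of Idi1 (vertical) against Abca1 (horizontal) on the 18 arrays, coloured by group, with the replicate numbers of the untagged arrays beside their points. Adult thymus and untagged arrays numbered 4 and 5 lie at high Abca1 and low Idi1, and all other arrays lie at Abca1 of at most 8.64 and Idi1 of at least 7.60.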

How the data were processed

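RNA of sorted Tregs was labelled with biotin and hybridized, 1 array per sample. The deposited table holds probe set intensities on the linear scale (6.81 to 18850), which the authors made by RMA in Affymetrix Power Tools according to the labels and the submitters' processing notes; versions and genome build are not given in the sources used here. There is no read depth for arrays, so precision is limited by how many there are. Of 24922 probe sets, 21425 carry 1 symbol, and the one with the highest mean per gene was kept (19752 genes; for Idi1 and Fdft1 this chose between 2 probe sets). Values were log2 transformed with no pseudocount, since 0 values lay below 1. A gene was tested if 1 group mean of the fit reached the median of all values (132.7, or 7.052 on the log2 scale). Spleen (12 arrays, 10350 genes), thymus (6 arrays, 10650 genes) and the contrast across tissues (18 arrays, 10889 genes) were fitted apart with limma 3.58.1 in R 4.3.3 (lmFit, eBayes, two-sided moderated test, Benjamini-Hochberg over all genes of a contrast, threshold 0.05), in 7 contrasts. An exact permutation test of 1 gene, 3 arrays against 3, cannot go below p = 0.1. The members and the lists were chosen with earlier results of these data known, and values on every array are given for members past the threshold and for the genes of the synthesis and efflux comparison. The code was tested on simulated data: in a copy of the tagged spleen comparison (10350 genes) 93 of 100 genes given a log2 change of 1 and 100 of 100 given 2 were recovered, and in a copy of the thymus comparison (10650 genes) 73 and 93.

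Correlations of deviations between same-numbered untagged arrays were r = 0.62, 0.13 and 0.45 for numbers 3, 4 and 5, each over 0.1, and by that bound the numbers were used as a block. Deviations were taken from the mean of 3 arrays, so an array that stands apart moves the others of its group together. The correlations therefore cannot show a pairing by number. The labels do not state this pairing, and the differently numbered arrays 4 and 5 correlated at 0.28 and 0.29, above the pair numbered 4. Alternatives were quantile normalization, median centring, no filter, the mean of a gene's probe sets, a trended and robust prior, array weights, the interquartile range of an array as a covariate, other sets of arrays, replicate blocks and leaving out each array. Leaving out both untagged arrays numbered 3 was added after seeing the data. Promoters came from a RefSeq table (GRCm38.p6). Plots used matplotlib 3.10.9 (Python 3.11.15). A chimera arm described by the series was not analysed here.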

Additional observations from a re-analysis of the deposited data

Results flagged for a closer look

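A test of the difference between contrasts marked 12 values. In the spleen, the perinate minus adult difference was larger in tagged than in untagged cells for Ebp (0.86) and Sc5d (0.67). Across tissues, the tagged spleen difference exceeded the thymus difference for Abca1 (2.44) and Mylip (0.99), both of which LXR is known to activate. It fell short of the thymus difference for Idi1 (-2.22), Sqle (-1.82), Srebf2 (-1.29), Hmgcs1 (-1.27), Lss (-1.11), Insig1 (-1.11), Fdps (-1.03) and Fasn (-0.74). Idi1, Sqle, Srebf2, Lss, Insig1 and Mylip kept this call in all 12 fits that left out 1 array of the 4 groups, while Fdps lost it in 10, Fasn in 8, Hmgcs1 in 7 and Abca1 in 2. Sc5d lost its call in 10 of 12 such fits of the interaction and Ebp in 0, but with replicate number as a block over the spleen arrays both lost it (Ebp 0.83, limma adjusted p = 0.0684).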

How the results depend on the processing

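In the thymus, the 21 members called were 20 to 23 under quantile normalization, median centring, no filter, mean probe sets, a trended and robust prior, the replicate block and a fit of all 18 arrays. The share of all genes called in these runs was 11.3% (no filter) to 33.7% (all 18 arrays). The count was 18 with the interquartile range as a covariate (23.7% of all genes called) and 16 with array weights (14.7%). It was 12 to 24 when an array was left out (12 without perinate thymus replicate 3, 13 without replicate 2). The share of all genes in those fits was 6.64% (without perinate thymus replicate 1) to 40.5% (without adult thymus replicate 2). In the spleen, the 5 members called between tagged groups were 4 or 5 under the scalings, the filter and other sets of arrays. The share of all genes there was 8.6% (no filter) to 33.2% (only the 6 arrays of the 2 groups). The count was 14 with array weights (57.0% of all genes called) and 1 with the interquartile range as a covariate (3.63%). It was 2 with the replicate block (Ebp and Scd2, 6.33%) and 3 to 5 when an array was left out (8.79% to 19.6%). Between untagged groups 0 members were called in every alternative run. After perinatal tamoxifen, the 2 members called in tagged against untagged cells were 1 with quantile normalization (8.44% of all genes called), 1 with median centring (5.83%), 1 with no filter (2.76%) and 1 with the interquartile range covariate (8.93%). They were 5 with the replicate block (10.5%), 19 with array weights (37.4%) and 12 without both untagged arrays numbered 3 (15.4%). Leaving out an array gave 1 to 7 (7 without perinate-treated untagged replicate 3, 9.63%). After adult tamoxifen the 0 were 1 with array weights (0.686% of all genes called), 1 with all 18 arrays (0.909%) and 1 with only the 6 arrays of the 2 groups (1.19%). They were 13 without both untagged arrays numbered 3 (13.9%) and 0 to 7 when an array was left out (7 without adult-treated untagged replicate 3, 7.46%). The 2 of the interaction were 1 with quantile normalization (5.33% of all genes called), 1 with median centring (4.27%) and 1 with no filter (1.94%). They were 1 with the interquartile range covariate (3.87%) and 0 with the replicate block (2.65%). With all 18 arrays 1 member passed (4.78%), and it was neither Ebp nor Sc5d. Leaving out an array gave 1 to 3 for the interaction (2.71% to 6.55%). The 10 of the spleen minus thymus contrast were 25 with array weights (46.7% of all genes called). Leaving out an array gave 6 to 12 (6 without adult thymus replicate 3, 4.23%). Quantile normalization gave 3 higher and 10 lower (9.42%), and the interquartile range covariate 4 higher and 8 lower (13.4%). Median centring gave 2 higher and 7 lower (3.95%), and no filter 2 higher and 6 lower (2.62%). Ebp was among the higher ones with quantile normalization (0.73, limma adjusted p = 0.0241) and with the covariate (0.81, limma adjusted p = 0.00521). Scd2 was so with the covariate (1.13, limma adjusted p = 0.0367). The cause of these changes was not tested. In 2 fits the array weights stopped before convergence. Outside the untagged arrays, same-numbered arrays did not deviate together in every pair, and among the untagged arrays a pairing is not shown. The replicate block therefore rests on a shared number only. In tagged against untagged cells after perinatal tamoxifen that block added Idi1 (1.08), Mvd (0.57) and Abca1 (-1.58) to Ebp and Npc1.

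The median difference of all genes in the thymus comparison was 0.168, 0.007 with quantile normalization and 0.287 with median centring; between tagged groups it was 0.116, -0.016 and 0.205. The members' median in the thymus was 0.59 with quantile normalization, 0.93 with centring and 0.40 with the interquartile range covariate, and between tagged groups 0.00, 0.28 and 0.02. Recomputed for the calls named in the text and for Abcg1 in the thymus, 683 differences kept their side of the threshold in 563 cases and their call was lost in 117; 3, all of Abcg1, became calls, and 0 changed direction. Members not called were left out of that count, and some passed elsewhere, such as Srebf1 in the thymus (limma adjusted p = 0.0495 with the replicate block, 0.0129 without adult thymus replicate 2) and Mvk (0.044 without that array).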

Other observations

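The Idi1 probe set not used above averaged 9.13 in perinate thymus and 6.21 in adult thymus. For Fdft1 the probe set not used gave a thymus difference of 0.83, against 0.90 for the one used.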
